A study of Drosophila melanogaster with 2 samples.

Results

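The EGF receptor, Ras and Raf genes of Drosophila are described here by the peaks of CHES-1-like, a transcription factor of the forkhead family. They are 10 of the 13968 protein-coding genes on the 7 chromosome arms used, and were chosen by name: the ligand spi, its activating protease rho, the receptor Egfr, the GTPase Ras85D, the kinases Raf, Dsor1 and rl, the nuclear factors pnt and aop, and the inhibitor sty. Peaks were counted for a gene when their summit lay in its body or within 5 kb of it. CHES-1-like was mapped by chromatin immunoprecipitation and sequencing (ChIP-seq) in whole embryos of both sexes aged 0 to 24 h. The embryos came from 1 transgenic line, strain CHES-1-like-GFP, which carries CHES-1-like with GFP fused to its C-terminus, and an anti-GFP antibody pulled down the fusion. The 2 samples are biological replicates 2 and 3 of this single group, so no test between conditions or across samples was possible. Whole embryos of many ages mix all tissues, so a peak cannot be given to a cell type or a stage, and binding data hold no level of any transcript.

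In this pathway the ligand Spitz, encoded by spi, is released from its membrane anchor by the protease Rhomboid and binds the receptor Egfr. The receptor activates Ras, which passes the signal through the kinases Raf, Dsor1 (MEK) and rl (ERK) to the nucleus, where the ETS activator Pointed and the ETS repressor Yan, encoded by aop, compete over target genes, while Sprouty, encoded by sty, holds Ras signalling back. In the embryo it patterns the ventral ectoderm and sets aside muscle and heart progenitors.

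The deposited lists give 1 line per summit, the highest point of a peak, on the dm6 assembly of the genome. Each replicate has a list, a pooled list was made from both, and the thresholded list was made with a test of reproducibility between replicates. It holds the 4599 strongest pooled entries, and not every one has a match within 100 bp in both replicates. Of the 10 genes, 8 held a thresholded summit in the body or 5 kb, against 53.4% of all protein-coding genes. At a transcription start site (TSS; within 500 bp) 5 of 10 held one, namely spi, Ras85D, Raf, pnt and aop, against 25.9%. With only the most upstream TSS of each gene counted, 2 of 10 held one, Ras85D and aop, against 24.0%. In an intron, more than 500 bp from every TSS, 5 of 10 held one, namely Egfr, Raf, pnt, aop and sty, against 5.13%. These genes are long, and long genes hold more summits: 6 of the 10 exceed 20 kb, and of genes over 20 kb 33.9% held an intronic summit, 63.2% held one in the body or 5 kb and 30.8% at a TSS. Of the 6 long genes, 5 held an intronic summit, 5 held one in the body or 5 kb and 3 held one at a TSS. Both genes under 5 kb, Ras85D and Dsor1, held a summit in the body or 5 kb, against 49.6% of genes of that size, and of the 2 genes from 5 to 20 kb spi did and rho did not, against 65.4%.

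The sequences under the strongest peaks of 6 genes, and the stretch between Ras85D and its neighbour, are given to show what the summits lie on. Each is the plus strand of dm6, 5' to 3', from the RefSeq release 6 genome, with 100 bp on each side of the summit except for the Ras85D stretch, in lower case with capitals where 1 of the 8 searched motifs stands on either strand. The motifs were a forkhead site (written as ATAAACA, also as GTAAACA, also as ACAAACA, also as GCAAACA), the short word GACGC, the DNA replication-related element or DRE (TATCGATA), the core of promoter Motif 1 (GGTCACACT), GAGAG, an Ets core (CCGGAA), a Capicua site (TGAATGAA) and a Zelda site (CAGGTAG).
Raf, intron, chrX:2297627-2297827: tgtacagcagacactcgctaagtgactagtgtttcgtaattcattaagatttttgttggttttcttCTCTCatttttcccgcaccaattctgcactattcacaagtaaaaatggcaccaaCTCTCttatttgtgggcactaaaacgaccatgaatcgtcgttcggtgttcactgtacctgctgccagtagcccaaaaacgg
aop, intron, chr2L:2163563-2163763: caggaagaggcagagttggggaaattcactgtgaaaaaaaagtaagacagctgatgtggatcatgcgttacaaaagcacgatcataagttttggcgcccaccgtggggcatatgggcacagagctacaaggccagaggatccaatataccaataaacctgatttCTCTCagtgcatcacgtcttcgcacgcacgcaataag
spi, first intron by an inner TSS, chr2L:19575655-19575855: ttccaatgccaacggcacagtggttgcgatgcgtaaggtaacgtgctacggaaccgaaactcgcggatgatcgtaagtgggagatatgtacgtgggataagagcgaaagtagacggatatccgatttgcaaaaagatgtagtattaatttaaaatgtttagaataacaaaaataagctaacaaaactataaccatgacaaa
mxc start beside Dsor1, chrX:9243528-9243728: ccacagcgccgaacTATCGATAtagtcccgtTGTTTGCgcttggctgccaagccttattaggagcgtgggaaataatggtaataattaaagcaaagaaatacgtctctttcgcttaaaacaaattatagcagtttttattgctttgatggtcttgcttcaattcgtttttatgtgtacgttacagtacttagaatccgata
pnt, intron, chr3R:23326390-23326590: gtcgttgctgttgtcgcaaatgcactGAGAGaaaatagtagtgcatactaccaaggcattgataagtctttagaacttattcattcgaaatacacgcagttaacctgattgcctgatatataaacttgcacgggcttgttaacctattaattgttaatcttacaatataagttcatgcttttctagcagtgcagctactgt
sty, first intron, chr3L:3418791-3418991: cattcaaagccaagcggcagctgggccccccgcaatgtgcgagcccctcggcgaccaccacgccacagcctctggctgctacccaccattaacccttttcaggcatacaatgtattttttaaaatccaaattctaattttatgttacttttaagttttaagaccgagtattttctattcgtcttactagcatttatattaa
Ras85D to Rlb1, whole stretch between the starts, chr3R:9513068-9513326: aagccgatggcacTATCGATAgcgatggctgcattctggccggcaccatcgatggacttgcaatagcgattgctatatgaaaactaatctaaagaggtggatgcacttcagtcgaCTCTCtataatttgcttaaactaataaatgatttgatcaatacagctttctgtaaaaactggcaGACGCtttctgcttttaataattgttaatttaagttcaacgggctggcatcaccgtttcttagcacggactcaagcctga
Capitals mark GAGAG or its complement CTCTC in Raf, aop and pnt, and DRE and a forkhead site in the peak beside Dsor1. In the Ras85D stretch they mark DRE, GAGAG and GACGC in that order. The windows of spi and sty hold none of the 8 motifs.

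A forkhead site stood in 11 of the 39 windows at the 10 genes (28.2%), against 29.4% of all 4599 thresholded windows. Over the 26 windows more than 500 bp from any TSS the count was 6 (23.1%), against 31.8% of all such windows, and over the 13 windows nearer to a TSS it was 5 (38.5%), against 27.9%. GAGAG stood in 14 windows (35.9%) against 24.2%, and the Raf summit at 2302256 had 9 matches in its window alone. GACGC stood in 4 windows (10.3%) against 16.1%. DRE stood in 2 windows (6.76% of all), at Ras85D and at mxc beside Dsor1, and the Motif 1 core in 1 (4.26% of all), at CG17754 beside Dsor1. All of these were among the 13 windows nearer to a TSS. There DRE stood in 15.4% against 10.4% of all such windows, and the Motif 1 core in 7.69% against 6.67%. Farther from a TSS the shares of all windows were 0.587% and 0.176%. The Ets core, the kind of site that Pointed and Yan bind, stood in 0 of 39 windows against 4.87%, or 3.4% of all windows farther from a TSS. The Capicua site stood in 1 window, at pnt (1.57% of all), and the Zelda site in 1, at aop (0.891% of all). A match is a description of letters and shows no binding by the factor it is named for, and GAGAG matches can overlap each other.

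The thresholded list held 4599 summits, the same ones that lead the pooled list of 30000 entries by signal. Signal, the authors' own value per summit, ran from 84.25 to 2442.46 with a median of 129.8, and each replicate list also held 30000 entries. Deposited q-values fell under 0.05 for 9439 entries of replicate 2 and for 7650 of replicate 3. No read counts come with the lists, so depth at a summit is unknown. Signals of different lists have different scales, so ranks, where 1 is the strongest, are set side by side between replicates.

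The 10 genes held 39 thresholded summits, of which 8 lay at their own TSSs, 5 at the TSS of another gene, 21 in introns, 4 in flanks and 1 in a 5' UTR. Introns held 53.8% of them against 25.2% of all thresholded summits, and TSSs held 33.3% against 62.9%. Neither these shares nor the distances below are matched for gene length, and 29 of the 39 summits came from the 6 genes over 20 kb. Raf alone held 42.9% of the intronic summits. The median distance to the nearest TSS was 1484 bp at the 10 genes and 182 bp over the whole list. Their signals had a median of 133.43 against 129.8 for the list. Intronic summits had a median of 133.43 against 125.46 for all intronic ones, and summits at a TSS 128.68 against 133.11. Raf gave 11 of the 39 summits and 9 of the 21 intronic ones. Medians without Raf were not computed, so a higher median cannot be given to the 10 genes as a set. By rank, 11 of the 39 were among the 920 strongest of the 4599 in the list and 4 among the 920 weakest. The Raf window held those ranked 60, 143, 199, 237, 284 and 543. Those ranked 199 and 412 lay at starts of other genes. Among the 20 annotated TSSs of the 10 genes, 6 had a thresholded summit within 500 bp, and the share over all TSSs was not computed. The 10 genes have more TSSs per gene than the 13968 genes, which have 19630. Of the 10 most upstream ones only those of Ras85D and aop had such a summit, against 24.0% over all genes.

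**Figure D1:**
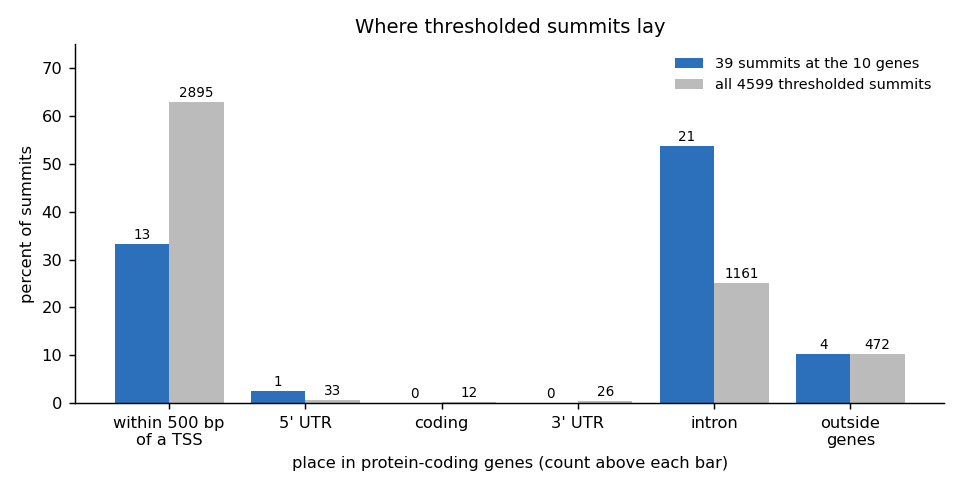
Share of thresholded summits (percent, vertical axis) in each place of protein-coding genes (horizontal axis), for the 39 summits at the 10 genes in blue and all 4599 in grey. Introns hold 53.8% of the blue and 25.2% of the grey summits, and TSSs 33.3% and 62.9%. The sets are not matched for gene length.

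**Figure D2:**
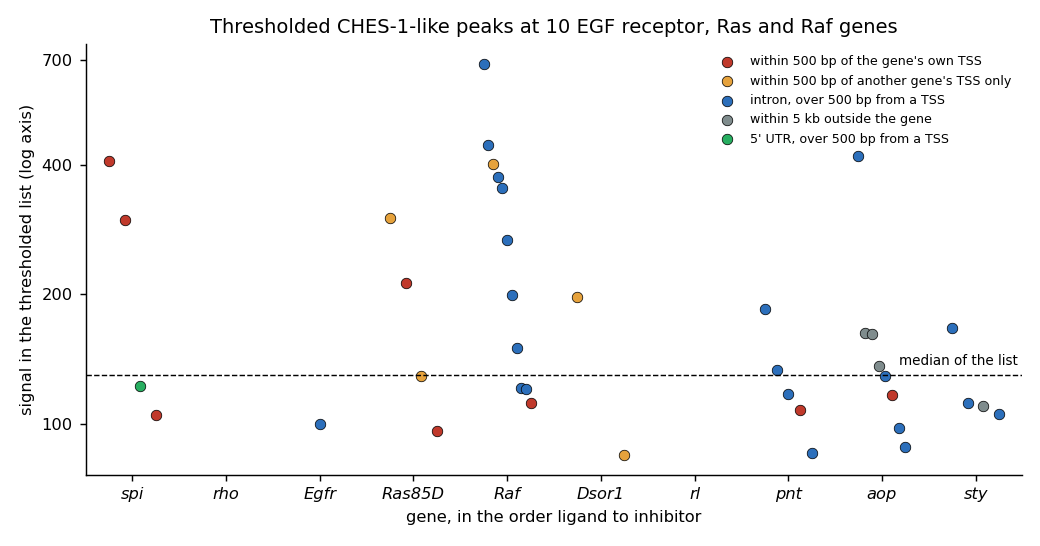
Signal of each thresholded summit in the pooled list (log axis) for each of the 10 genes, coloured by place. The highest values are 686.54 at Raf, 417.78 at aop and 408.03 at spi, and rho and rl hold none.

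Spitz, the ligand, had its strong peaks at an inner start site. spi (FBgn0005672; dm6 chr2L:19567900-19577315, minus strand) held 4 thresholded summits. The strongest, at 19575755, lay in the first intron 168 bp from an inner TSS, with a signal of 408.03 (rank 186), rank 172 and signal 243.35 in replicate 2 and rank 222 and signal 164.91 in replicate 3. A second summit 199 bp away had a signal of 297.81 (rank 421; 771 in replicate 2, 293 in replicate 3). The other summits were weaker: one in a 5' UTR with 122.17 (rank 2542; 5556 in replicate 2, 1403 in replicate 3) and one 347 bp from another inner TSS with 104.6 (rank 3294; 3096 in replicate 2, no match within 100 bp in replicate 3). None lay within 500 bp of the most upstream TSS.

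The protease gene rho (FBgn0004635; dm6 chr3L:1463811-1468944, plus strand) held no thresholded summit, and the nearest one lay 10516 bp away. Its best pooled entry, 141 bp from the TSS, had a signal of 49.1 (rank 9931, q = 0.0807). The matching entries ranked 8040 in replicate 2 (q = 0.019) and 13089 in replicate 3 (q = 0.285). Over the body and 5 kb each replicate had 1 entry with a q-value under 0.05, of which the one in replicate 3 ranked 7479 with a signal of 28.86.

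Egfr, the receptor (FBgn0003731; dm6 chr2R:21522420-21559977, plus strand), held 1 thresholded summit over 37.6 kb, in its first intron 5073 bp from its TSS. Its signal was 99.54 (rank 3537), with rank 3352 in replicate 2 and 3935 in replicate 3. Without replicate 3, that is among the best 4599 entries of replicate 2, the count was 2, both intronic. Without replicate 2, counted likewise in replicate 3, it was 1. Among pooled entries with a q-value under 0.05 it was 5, of which 4 were intronic. At its own TSS the best pooled entry had a signal of 45.8 (rank 10990, q = 0.124). That entry ranked 10013 in replicate 2 and had no match in replicate 3. The nested genes CG30286, CG30283, CG30287 and CG33226 lie within Egfr, and the next best pooled entry, with a signal of 72.7 (rank 5681), lay 1221 bp from the TSS of CG30286.

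Ras85D, the GTPase (FBgn0003205; dm6 chr3R:9510561-9513067, minus strand), sat among neighbours with peaks of their own. Its 2.51 kb body and flanks held 4 thresholded summits. The strongest, 300.43 (rank 412; 419 in replicate 2, 439 in replicate 3), lay 30 bp from a TSS shared by CG8176 and Kdm3, 2910 bp from Ras85D's own. At its own TSS a summit 53 bp upstream had a signal of 212.2 (rank 866), 128.35 in replicate 2 (rank 772) and 106.05 in replicate 3 (rank 668). A second one there, with 96.13 (rank 3720; 2899 in replicate 2, no match in replicate 3), lay 258 bp from the Ras85D TSS and 2 bp from that of Rlb1. Rlb1 starts 260 bp away and runs in the opposite direction, so the promoters share the stretch printed above and a peak there cannot be given to either gene. The DRE match in that stretch lies 14 bp from the Ras85D TSS. The fourth summit, 128.68 (rank 2329; 2890 in replicate 2, 1635 in replicate 3), lay 10 bp from the TSS of rump.

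Raf, the first kinase of the cascade (FBgn0003079; dm6 chrX:2295466-2343870, plus strand), held the most summits of the 10 genes, 11, of which 9 lay in 1 intron of 43.6 kb. Only CHES-1-like itself, with 11, and Tlk, with 10, held more intronic summits among all 13968 genes, and CG1677, shn and tara held 9 as well. The strongest Raf summit, 2261 bp downstream of the first TSS, had a signal of 686.54 (rank 60), 410.97 in replicate 2 (rank 58) and 278.99 in replicate 3 (rank 65). The next, 8655 bp downstream, had 444.83 (rank 143), with rank 118 in replicate 2 and 244 in replicate 3. Summits 903, 5256 and 6790 bp downstream had signals of 373.38, 353.6 and 266.72, with ranks from 200 to 598 in replicate 2 and from 261 to 470 in replicate 3. All 5 of these summits ranked 598 or better in both replicates.

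Within 12 kb of the first Raf TSS lay 7 of the 9 intronic summits. The weaker of them, 3777 and 10999 bp downstream, had 120.85 (rank 2588; 1919 in replicate 2, 4629 in replicate 3) and 120.17 (rank 2616; 2907 in replicate 2, 2369 in replicate 3). Farther in, a summit at 26660 bp had 150.16 (rank 1721; 1502 in replicate 2, 2706 in replicate 3) and one at 34091 bp had 198.88 (rank 1002; 1022 in replicate 2, 1083 in replicate 3). Their nearest TSSs were those of the nested genes CG14050, 3658 bp away, and CG2854, 2429 bp away, and the intron holds Ilp6 as well. The first Raf TSS had no pooled entry closer than 527 bp. The count of Raf at a TSS rests on a summit in a 5' UTR, 132 bp from the inner TSS, with 111.86 (rank 2954), which ranked 4856 in replicate 2 and so outside its best 4599, and 2332 in replicate 3. Upstream of the gene a summit with 401.66 (rank 199; 227 in replicate 2, 196 in replicate 3) lay 339 bp from the TSS of CG2865.

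**Figure D3:**
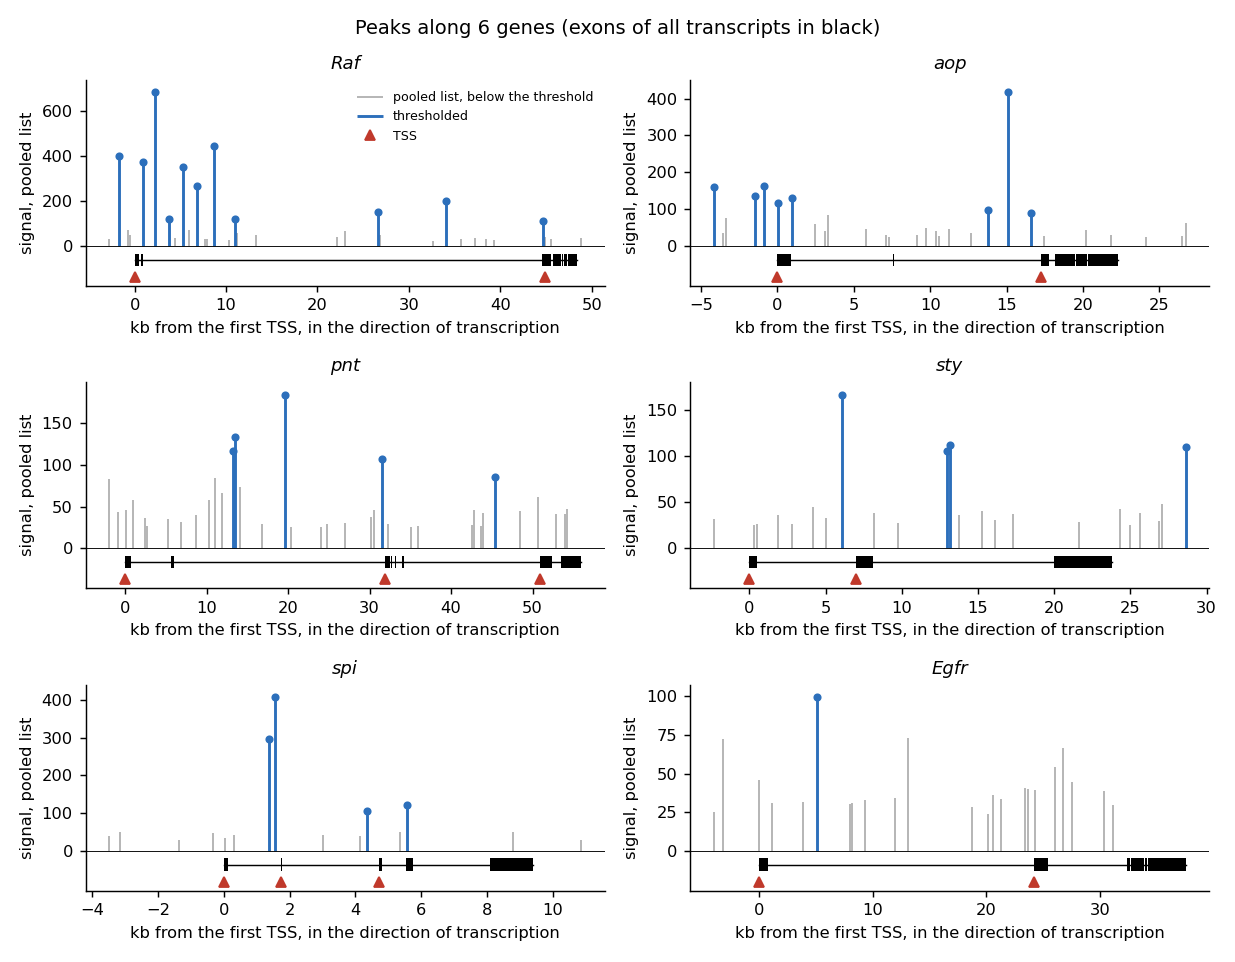
Signal in the pooled list (vertical axis) of thresholded summits in blue and weaker pooled entries in grey along 6 genes, with distance in kb from the first TSS in the direction of transcription, exons in black and TSSs as red triangles. In Raf the tall summits stand within 12 kb of the first TSS.

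**Figure D4:**
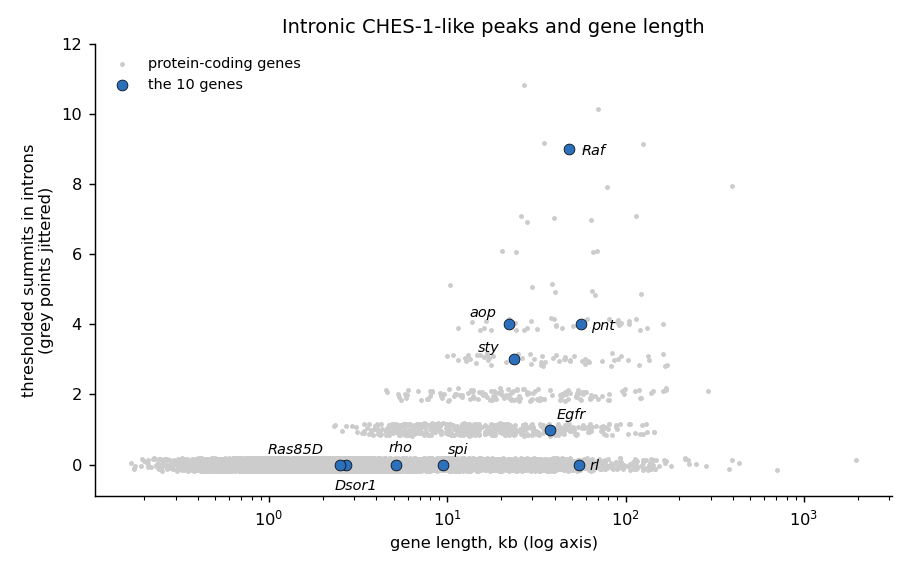
Thresholded summits in introns (vertical axis, grey points jittered) against gene length in kb (log axis) for all 13968 protein-coding genes in grey and the 10 genes in blue. Raf stands at 9, pnt and aop at 4, sty at 3, Egfr at 1 and the other 5 genes at 0.

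Dsor1, the MEK kinase (FBgn0010269; dm6 chrX:9247342-9250037, plus strand), had thresholded summits only at neighbouring starts. One, with 196.73 (rank 1027; 1424 in replicate 2, 835 in replicate 3), lay 161 bp from the TSS of mxc and 3714 bp from Dsor1's own. The other, with 84.43 (rank 4581), lay 50 bp from the TSS of CG17754, with no match in replicate 2 and rank 5402 in replicate 3. At Dsor1's own TSS, 6 bp from that of amx, the best pooled entry missed the thresholded list with 76.4 (rank 5299, q = 0.000849). It ranked 10858 in replicate 2 (q = 0.0955) and 3102 in replicate 3 (q = 0.000132), so the replicates differed on it.

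The ERK gene rl (FBgn0003256; dm6 chr2R:1071462-1125927, plus strand) had no entry of any list in its body or 5 kb. No pooled entry lay within 500 kb of it, whereas the other genes had 201 to 395. The nearest pooled entry was 1441220 bp away and the nearest thresholded one 3703287 bp. The 8 other genes within 500 kb had 0 pooled entries too. Replicate 2 alone had 0 entries within 500 kb and replicate 3 alone had 1. Whether reads can be placed in this stretch was not tested. Pooled entries of any rank reached 9 of the 10 genes in the body or 5 kb, all but rl, against 85.0% of all genes, and a TSS of 9 of 10, against 56.6%. The best TSS entries of rho, Egfr and sty had q-values of 0.0807, 0.124 and 0.7. Among pooled entries with a q-value under 0.05 the count at a TSS was 6 of 10, against 38.6%.

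Pointed, the ETS activator, had its summits mostly far from its start sites. pnt (FBgn0003118; dm6 chr3R:23290231-23346167, minus strand) held 5 over 55.9 kb. The strongest, in an intron 12175 bp from any pnt TSS, had 184.45 (rank 1189), 104.42 in replicate 2 (rank 1185) and 72.37 in replicate 3 (rank 1542). In the same intron of 23.6 kb stood a pair 235 bp apart, with 133.43 (rank 2181; 3006 in replicate 2, no match in replicate 3) and 117.15 (rank 2736; 4312 in replicate 2, 1738 in replicate 3). The pnt summit at a TSS, 306 bp from an inner one, had 107.71 (rank 3147; 3496 in replicate 2, 3954 in replicate 3). The last, with 85.5 (rank 4485; 4263 in replicate 2, 5545 in replicate 3), lay close to the lower end of the list at 84.25.

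Yan, the ETS repressor that opposes Pointed, had its strongest peak in an intron. aop (FBgn0000097; dm6 chr2L:2156484-2178754, minus strand) held 8 summits over 22.3 kb, of which 4 were intronic, 3 upstream and 1 at its first TSS. The strongest, in an intron 2136 bp upstream of an inner TSS, had 417.78 (rank 171), 230.25 in replicate 2 (rank 199) and 174.96 in replicate 3 (rank 186). Its other intronic summits had 128.85, 97.64 and 88.22, and the first and last of these had no match in replicate 3. Upstream, at 858, 1484 and 4160 bp, stood summits with 162.28, 136.45 and 161.21 and ranks from 1104 to 2057 in replicate 2 and from 1580 to 2934 in replicate 3. At the first TSS, 67 bp away, the summit had 116.52 (rank 2753; 4405 in replicate 2, 2137 in replicate 3). Over all genes, 30 held as many summits in the body or 5 kb as aop or more, and 57 held 4 or more intronic ones. The thresholded list held 8 summits at aop and 5 at pnt, but among pooled entries with a q-value under 0.05 each had 12, and without replicate 2 each had 7.

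Sprouty, the inhibitor, had intronic peaks and none at a start site. sty (FBgn0014388; dm6 chr3L:3401153-3424935, minus strand) held 4 summits over 23.8 kb. The strongest, in the first intron 930 bp upstream of an inner TSS, had 166.81 (rank 1426), 106.78 in replicate 2 (rank 1133) and 61.5 in replicate 3 (rank 2069). A pair 200 bp apart in the second intron had 111.81 (rank 2960; 2633 in replicate 2, 3810 in replicate 3) and 105.49 (rank 3251). The latter ranked 14689 in replicate 2 (q = 0.27) and 4571 in replicate 3. The fourth, with 109.68 (rank 3061; 3471 in replicate 2, 2816 in replicate 3), lay beyond the end of the gene, with the TSS of Ids nearest. The best pooled entry at a sty TSS had 25.6 (rank 25960, q = 0.7).

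Density followed a different order from counts. Per 10 kb of body and flanks Ras85D held 3.2 thresholded summits, aop 2.48, spi 2.06, Raf 1.88, Dsor1 1.58, sty 1.18, pnt 0.758, Egfr 0.21 and rho and rl 0. Over the full length of the 6 arms with entries the density was 0.344. That value also takes in DNA outside genes, whereas each gene window holds a TSS, where 62.9% of all thresholded summits lay. Windows of other genes were not compared, so no excess can be read from it. The value for Egfr rests on 1 summit. The values for Ras85D and Dsor1 include summits at neighbouring starts.

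Of the 39 summits, 33 (84.6%) had a match within 100 bp in both replicate lists, against 94.0% of all thresholded summits. Of the other 6, 5 were found in replicate 2 alone and 1 in replicate 3 alone. Neither replicate gave the higher rank throughout: 17 of the 33 ranked higher in replicate 2 and 16 in replicate 3. Ranks do not show which replicate had the stronger signal. Of the 33, 24 had ranks within 2-fold of each other. Both replicates had 28 of the 39 among their best 4599 entries. For this count and for ranks within 2-fold, the shares of all thresholded summits were not computed. With the best 4599 entries of 1 replicate alone, genes with a summit at a TSS were 4 of 10 without replicate 3, which lost Raf, against 25.2% of all genes. Without replicate 2 they were 6 of 10, which added Dsor1, against 26.2%.

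**Figure D5:**
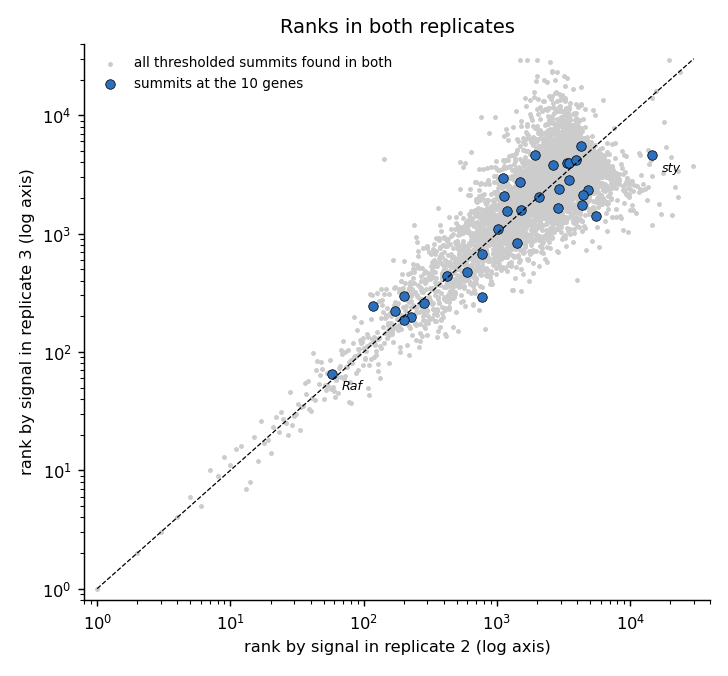
Rank by signal in replicate 2 against replicate 3 (log axes, 1 is the strongest) for the 33 summits at the 10 genes found in both in blue and all such thresholded summits in grey, with the line of equal rank dashed. The strongest Raf summit stands at 58 and 65 and a weak sty summit at 14689 and 4571.

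In 4 cases, at spi, Ras85D, pnt and sty, neighbouring summits lay 199 to 235 bp apart in overlapping regions. In all lists the smallest gap between neighbouring summits was 199 bp, and in the thresholded list 231 of the 259 gaps under 430 bp (89.2%) lay between 190 and 240 bp. Whether such pairs are separate binding sites was not tested. Counted once, the 39 summits became 35 and the 21 intronic ones 19, with 5 of 10 genes at a TSS as before.

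Of 41 other genes of the pathway, 17 held a thresholded summit at a TSS, against 25.9% of all genes, 31 held one in the body or 5 kb, against 53.4%, and 14 an intronic one, against 5.13%. By length, 4 of 6 under 5 kb held one in the body or 5 kb, against 49.6%, 20 of 28 from 5 to 20 kb, against 65.4%, and 7 of 7 over 20 kb, against 63.2%. Of these 7 long genes 5 held an intronic summit, against 33.9%, and 3 held one at a TSS, against 30.8%. The group of adaptors, exchange factors and other regulators that act near the receptor had a TSS summit at 4 of 7. Scaffolds had one at 3 of 5, nuclear factors at 4 of 8 and Ras GTPase activators at 2 of 3. Antagonists outside the cell or in its membrane had one at 1 of 2, ligands at 1 of 3, phosphatases at 1 of 3, genes of ligand processing at 1 of 4 and Spred, an inhibitor of Ras signalling, at 0 of 1. The other receptor tyrosine kinases, sev, tor, htl, btl and Pvr, held no summit in the body or 5 kb (0 of 5).

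The strongest of these at a TSS was that of Shc, an adaptor, with 1134.33 (rank 18; 19 in replicate 2, 18 in replicate 3). The co-repressor gro had 550.48 (rank 95; 110 in replicate 2, 78 in replicate 3) and ebi 429.38 (rank 159; 140 in replicate 2, 219 in replicate 3). All exceed the TSS summits of the 10 genes, the highest of which was 408.03 at spi. Krn, a ligand related to Spitz, had 247.17 (rank 628; 840 in replicate 2, 500 in replicate 3) at a site as close to the start of Ndfip. The scaffold gene 14-3-3zeta had 244.3 (rank 646; 821 in replicate 2, 493 in replicate 3). S, which carries Spitz through the secretory pathway, had 203.47 (rank 950; 774 in replicate 2, 1254 in replicate 3) at a site nearer to the TSS of ast. In introns the strongest stood in S with 366.87 (rank 249; 342 in replicate 2, 183 in replicate 3) and in aos, the secreted antagonist of Egfr, with 359.93 (rank 270; 193 in replicate 2, 454 in replicate 3). The ligand gene vn had 212.69 (rank 859; 727 in replicate 2, 1203 in replicate 3) and the adaptor drk 212.6 (rank 860; 636 in replicate 2, 1559 in replicate 3), nearest to the TSSs of mad2 and mars.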

How the data were processed

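ChIP-seq peak lists of 2 biological replicates of 1 group were analysed. Per the deposited file manifests, a replicate list was made from 1 library with a control, the pooled list from the 2 libraries with that control, and the thresholded list from these 3 lists by irreproducible discovery rate. The manifests call entries of the unthresholded lists peaks and background. For aligner, peak caller and rate limit the names and values were not given in the sources used here, and the control library is not analysed here. Each line holds a signal value and the −log10 of a q-value as deposited by the authors, and a summit. Signal was used only to describe and rank summits within its list, and the authors' scale differs between lists. A different caller or limit would change the counts.

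Genes, 13968 with 19630 TSSs, came from Ensembl release 115 on dm6, and sequence from the RefSeq release 6 genome. All dm6 entries lay within the reference arm lengths. The dm3 lists were not used here, since coordinates were not converted. Summits of different lists matched within 100 bp. Motifs were searched within 100 bp of each summit. No test was made, since 1 group with 2 samples allows none. The samples are separate biosamples of 1 line.

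The genes named are the 10 genes, those holding the TSS nearest to their thresholded summits, and of 41 other pathway genes the 6 strongest at a TSS and 4 strongest in introns. Genes nested in them, those with as many intronic summits as Raf or more, members of the receptor group and Rlb1 and amx were named after their values were seen. Windows printed were the strongest that overlap no annotated exon, at most 1 per gene and 6 in all, which left out those at Ras85D. The Ras85D stretch and the range of gaps between 190 and 240 bp were added after values were seen. The genes and lists were chosen with earlier results of these data known. Alternatives covered the TSS window, the flank, the list, either replicate, matching, 1 TSS per gene and overlapping regions. The counting was tested on planted summits. Scripts ran under Python 3.11.15 with matplotlib 3.10.9, scipy 1.17.1, pandas 2.3.3 and numpy 2.4.6.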

Additional observations from a re-analysis of the deposited data

How the results depend on the processing

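Of 68 recomputed counts 60 stayed within 1.5 times the reported one, but some of these could not change. The choice of TSSs and their window does not touch counts of summits in the body or 5 kb. The flank does not touch counts at a TSS or in introns. Of the counts for single genes, 229 stayed within that limit and 31 did not. Without the flank 6 of the 10 genes held a summit, and the share of all genes was not counted there. With pooled entries of a q-value under 0.05, summits at the 10 genes rose from 39 to 63, intronic ones from 21 to 34 and other pathway genes with a TSS summit from 17 to 28. The share of all genes with a TSS summit rose from 25.9% to 38.6% at the same setting. With the 2299 strongest thresholded summits alone, summits, intronic summits and other pathway genes with a TSS summit numbered 20, 11 and 10. Of the 10 genes 2, spi and Ras85D, then had a TSS summit, against 15.0% of all genes. With 1 TSS per gene 2 had one, Ras85D and aop, against 24.0%. Leaving out 1 replicate meant taking the best 4599 entries of the other replicate's list. The number of entries was thus fixed, and no test of reproducibility was applied to them. This gave 40 to 44 summits, 22 intronic ones in both cases and 15 to 17 other pathway genes with a TSS summit. Of the 10 genes 4 to 6 had a TSS summit, against 25.2% to 26.2% of all genes, and 8 had one in the body or 5 kb in both cases. Matching within 50 bp gave 23 of 39 summits found in both replicates, and within 200 bp or by overlap of regions 39. The shares of all thresholded summits were not computed at these settings. Neighbouring summits of a list lay as close as 199 bp, so at 200 bp or by overlap a match can be a neighbour. No paired analysis was possible because there is only 1 group. Depth is unknown, so a gene without a summit is not shown to be unbound.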

Other observations

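The summits at the start of the long Raf intron stood in a row. From the one 903 bp downstream of the first TSS, the gaps to the next were 1358, 1516, 1479, 1534, 1865 and 2344 bp, after which the next summit lay 15661 bp on. In signal they alternated, with 373.38, 686.54, 120.85, 353.6, 266.72, 444.83 and 120.17. This was noticed after the values were seen and was not tested.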
